A study of Mus musculus with 6 samples.

Results

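The immediate early response genes examined here are 10 rows of 13426 in the deposited table of normalised read counts, matched to mouse symbols through their Entrez IDs. They are the AP-1 genes *Fos* (Entrez ID 14281), *Fosb* (14282), *Jun* (16476), *Junb* (16477) and *Jund* (16478), the zinc finger genes *Egr1* (13653) and *Klf6* (23849), the orphan nuclear receptor gene *Nr4a1* (15370), the nuclear regulator gene *Ier2* (15936) and the MAP kinase phosphatase gene *Dusp1* (19252). All 10 were found. The rule that picks them names genes and no measured value, but the set was proposed with earlier results of these data known. RNA sequencing was done on early LPre-B cells, the large pre-B stage at which the heavy chain gene is being assembled, sorted from the bone marrow of adult, age-matched C57BL/6 mice of both sexes as large lineage-negative cells with B220 and CD43 but without surface IgM and CD2. The Ctrl group carried *Upf1* Flox/Flox with Mb1 +/+, and the cKO group carried *Upf1* Flox/Flox with Mb1 Cre/+. The floxed alleles were therefore shared by both groups, and Cre was present only in the cKO group, expressed from the Mb1 (*Cd79a*) locus, which is active in B lineage cells. The study asks how this stage depends on UPF1, the helicase at the centre of nonsense-mediated mRNA decay (NMD), the pathway that degrades transcripts with premature stop codons. Each group had 3 libraries, whose recovered reads totalled between 9732498 and 11006834. The study's methods describe its samples as biological replicates, while the labels tie no library to a mouse, so p-values measure the spread between these libraries.

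Immediate early genes are transcribed within minutes of a stimulus without the need for new protein synthesis. Signals from growth factor, cytokine and antigen receptors reach them through ERK, JNK and p38 MAP kinases and through the factors SRF, ELK and CREB bound at their promoters. Their mRNAs are usually short lived, in part because of AU-rich elements in the 3′UTR, and their products are mostly transcription factors or feedback inhibitors. In B lineage cells this programme follows pre-B cell receptor, IL-7 receptor and stress signals, and several of these genes are also known to rise while tissue is dissociated and sorted.

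Promoters are shown for 7 members, because sequence elements upstream of the start are something that the choice of genes did not use. RefSeq promoter windows of GRCm38.p6, from 250 bases before to 50 bases after the start, matched 8 of the 10 members. The 150 bases upstream of the start are printed 5′ to 3′, with TGACNTCA or the shorter TGACG, on either strand, in capitals. TGACGTCA is the cAMP response element, bound by CREB, ATF and JUN proteins, and TGACG is the start of it but not of TGACATCA. *Jun*, *Junb*, *Nr4a1* and *Klf6* had higher read counts in cKO libraries, and *Fos*, *Dusp1* and *Jund* passed the test in neither direction (values below). The window of *Fosb*, in which TGACG occurs 60 bases upstream, is not printed. The *Nr4a1* window lies at a start inside the annotated gene.
Jun, chr4:95052223-95052372, minus strand: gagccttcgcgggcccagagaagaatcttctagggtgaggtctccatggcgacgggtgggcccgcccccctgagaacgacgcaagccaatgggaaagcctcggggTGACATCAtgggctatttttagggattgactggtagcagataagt
Junb, chr8:84978749-84978898, minus strand: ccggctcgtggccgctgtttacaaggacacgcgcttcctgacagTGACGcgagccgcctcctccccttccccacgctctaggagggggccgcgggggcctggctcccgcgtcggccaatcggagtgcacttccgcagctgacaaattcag
Nr4a1, chr15:101266696-101266845, plus strand: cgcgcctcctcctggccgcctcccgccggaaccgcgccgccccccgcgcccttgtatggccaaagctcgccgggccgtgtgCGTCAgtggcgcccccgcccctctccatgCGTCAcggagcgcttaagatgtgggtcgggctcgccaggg
Klf6, chr13:5861339-5861488, plus strand: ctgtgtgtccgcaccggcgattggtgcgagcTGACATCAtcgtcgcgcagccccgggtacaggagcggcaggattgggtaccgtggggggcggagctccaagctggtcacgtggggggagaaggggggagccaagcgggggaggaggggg
Fos, chr12:85473740-85473889, plus strand: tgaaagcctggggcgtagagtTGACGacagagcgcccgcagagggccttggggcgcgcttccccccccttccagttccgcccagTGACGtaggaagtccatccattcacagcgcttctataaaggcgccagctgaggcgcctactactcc
Dusp1, chr17:26508473-26508622, minus strand: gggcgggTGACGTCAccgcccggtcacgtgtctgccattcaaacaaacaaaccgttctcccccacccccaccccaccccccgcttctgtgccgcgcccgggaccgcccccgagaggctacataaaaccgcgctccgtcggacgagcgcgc
Jund, chr8:70697589-70697738, plus strand: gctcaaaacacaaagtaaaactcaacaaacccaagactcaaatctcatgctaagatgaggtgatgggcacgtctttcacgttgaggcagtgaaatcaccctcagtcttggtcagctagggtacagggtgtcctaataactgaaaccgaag

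An exact TGACNTCA was found in 3 of 8 windows, those of *Jun* and *Klf6* (TGACATCA, starting 45 and 119 bases upstream) and *Dusp1* (TGACGTCA, 143 bases upstream), against 8.83% of 32851 promoter windows searched on both strands. The shorter TGACG was present in 5 of 8 windows, those of *Fos*, *Fosb*, *Junb*, *Nr4a1* and *Dusp1*, against 20.8% of all windows. In *Dusp1* it occurs within TGACGTCA and again 191 bases upstream of the start. TGACG was added to the search after the sequences had been seen. GCGNGGGCG, an EGR motif, was found in *Fosb* and *Nr4a1* (5.55% of all windows), and TATAAA in *Fos* and *Junb* (13.6%). The AP-1 motif TGANTCA (7.81% of all windows) and the CArG box (1.63%) were found in no member's window, which says only that these letters are absent from these 300 bases. *Jun* and *Klf6*, higher in cKO, held TGACATCA, and *Dusp1*, which did not pass, held TGACGTCA. The shorter TGACG likewise stood in windows of genes that were higher (*Junb* and *Nr4a1*) and of genes that did not pass (*Fos*, *Fosb* and *Dusp1*), and the *Jund* window held neither. That window lies at the RefSeq start of *Jund* (70697739), which is upstream of its GENCODE start (70698949), so it may not be the promoter in use.

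Across all genes 52.7% passed an adjusted p of 0.05 between the groups, 27.7% higher and 25.0% lower in cKO. This split of 3725 higher and 3351 lower genes became 2992 and 4355 with each library centred on its median, and 5169 and 1936 with libraries scaled to total reads. Against this background, 5 of the 10 members were higher in cKO (*Nr4a1*, *Jun*, *Klf6*, *Ier2* and *Junb*), 1 was lower (*Egr1*) and 4 did not pass (*Fos*, *Fosb*, *Jund* and *Dusp1*). The median log2 fold change was 0.16 over the members and 0.01 over all genes. All 3 cKO libraries lay above all 3 Ctrl libraries for 5 members and below them for 3 members, *Fos*, *Jund* and *Egr1*, and the groups overlapped for *Fosb* and *Dusp1*. Over all genes the corresponding shares were 30.9% above and 27.98% below. Fold changes here are differences of log2(value + 1) from limma, cKO minus Ctrl, and adjusted p-values are over all genes. Members had between 26 reads (*Egr1*) and 854 reads (*Jund*) in a library.

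**Figure D1:**
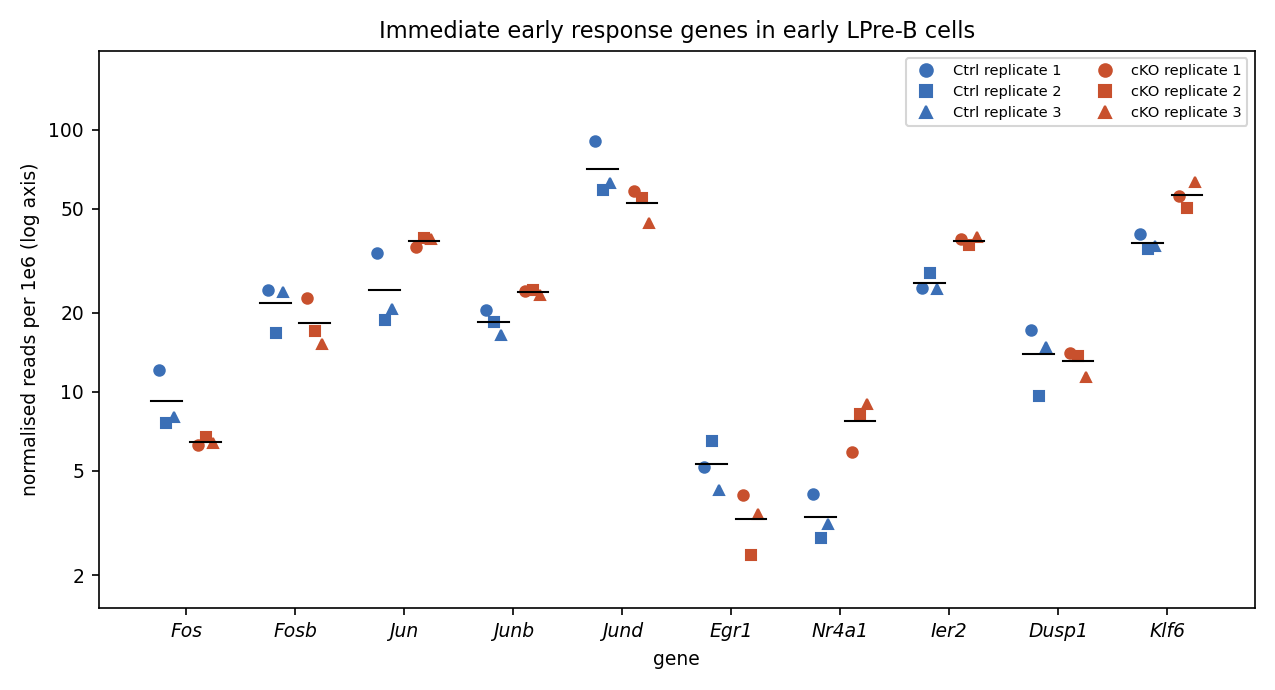
Normalised reads per 1e6 (log axis) of the 10 members in each library, with Ctrl in blue, cKO in orange, a marker shape per replicate number and a black line at each group mean. *Jun*, *Junb*, *Nr4a1*, *Ier2* and *Klf6* lie wholly higher in cKO, *Fos*, *Jund* and *Egr1* lie wholly lower, and *Fosb* and *Dusp1* overlap.

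The library labels were compared with the targeted gene and with marker genes. *Upf1* had 241 ± 32.3 normalised reads (SD, n = 3) in Ctrl and 297 ± 12.7 (SD, n = 3) in the libraries labelled cKO, a log2 fold change of 0.31 (limma adjusted p = 0.00696). The call was lost without trend and robust estimation (0.0685) and under median centring (log2 fold change 0.20, adjusted p = 0.0645), and the log2 fold change was 0.19 without Ctrl library 2. A count over the whole gene does not resolve the floxed exons, so it does not check the labels. All 15 early LPre-B markers were in the table with reads in every library, and their summed level ranged from 3042 to 3314 in Ctrl and from 3403 to 3634 in cKO. Among them 7 (46.7%) were higher in cKO, including *Kit* and *Dntt*, and 3 (20%) were lower, including *Cd79a*, beside 27.7% and 25.0% of all genes. The Mb1 Cre allele replaces a copy of this gene, and its level of 220.6 ± 11.4 in Ctrl and 73.3 ± 1.85 in the libraries labelled cKO (SD, n = 3 each) ran in the direction the labels give. Of 16 neutrophil and monocyte markers, 9 (56.2%) were higher and 1 (6.25%) lower in cKO, and their summed level was 73.2 to 194 in Ctrl and 411 to 561 in cKO. The granule protein gene *Ltf* had 27.99, 1.77 and 1.84 normalised reads in Ctrl libraries 1, 2 and 3 and 116, 82.7 and 86.1 in the cKO libraries. Its call (limma adjusted p = 0.0415) was lost when any 1 library other than Ctrl library 1 was left out (0.108 to 0.122). It was also lost under the replicate block (0.0744). The calls for *S100a8* and *S100a9* were lost in the same left-out fits (limma adjusted p of 0.0597 to 0.0825). The neutrophil marker *Ly6g* had no read in 2 Ctrl libraries and *Cebpe* none in 1 (both chosen after their values were seen). Erythroid markers (5 in the table) summed to 85.6 to 99.2 in Ctrl and 96.3 to 105.5 in cKO, all with a limma adjusted p of 0.0905 or more. The 3 T and NK cell markers present summed to 64.2 to 93.1 in Ctrl and 28.3 to 31.4 in cKO, mostly from *Lck*. Of these, 1 was higher and 1 lower (33.3% each). *Lck* was lower, and *Klrb1c* rose from 0.595 ± 0.229 to 3.20 ± 0.580 normalised reads (SD, n = 3 each, log2 fold change 1.40, limma adjusted p = 2.6e-05). The 7 dendritic and stromal markers summed to 86.1 to 116 in Ctrl and 127 to 129 in cKO, with *Flt3* and *Ccr9* among 3 that were higher. The call for *Ccr9* was lost without Ctrl library 3 (limma adjusted p = 0.0555). The lineage stain of the sort, with antibodies to CD3e, CD11b, CD11c, F4/80 and TER-119, was meant to remove such cells. The part of these other cells in the members' values was not tested, and in bulk RNA a change in the number of cells of a type cannot be told apart from a change in RNA per cell.

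The Jun family encodes basic leucine zipper subunits of AP-1 dimers. *Jun* (chromosome 4, 95049036 to 95052222, GRCm38) encodes c-Jun, the subunit phosphorylated by JNK. Its normalised reads were 33.7, 18.7 and 20.7 in Ctrl libraries 1, 2 and 3 and 35.8, 38.5 and 38.3 in cKO libraries 1, 2 and 3. The groups did not overlap, but Ctrl library 1 lay close to the cKO libraries and far from the other Ctrl libraries. The mean rose from 24.4 ± 8.15 to 37.5 ± 1.54 (SD, n = 3 each), a log2 fold change of 0.65 (SE 0.17, limma adjusted p = 0.00697). Without Ctrl library 1 the log2 fold change was 0.90 (limma adjusted p = 2.4e-06).

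*Junb* (chromosome 8, 84976909 to 84978748) encodes a subunit that often opposes c-Jun and restrains proliferation. It had 20.6, 18.4 and 16.5 normalised reads in Ctrl libraries and 24.2, 24.5 and 23.4 in cKO libraries. Every cKO library was above every Ctrl library by a narrow margin, and the log2 fold change was 0.36 (SE 0.12, limma adjusted p = 0.0179). The call was lost without Ctrl library 3 (limma adjusted p = 0.0752), cKO library 1 (0.0537) or cKO library 2 (0.0572), and under median centring (0.0845) and quantile normalization (0.0965).

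*Jund* (chromosome 8, 70697739 to 70700616) encodes the subunit that is present in resting cells and is the least inducible of the family. It had 90.8, 59.0 and 62.4 normalised reads in Ctrl libraries and 58.6, 54.8 and 44.1 in cKO libraries. The cKO libraries were all lower, although cKO library 1 differed from Ctrl library 2 by less than 1 read per 1e6. The log2 fold change of -0.41 (SE 0.16, limma adjusted p = 0.0550) did not pass. It passed without Ctrl library 2 (limma adjusted p = 0.0336), Ctrl library 3 (0.0459) or cKO library 1 (0.0384), in voom (0.0254), in edgeR (0.0214), in DESeq2 (0.00938), under median centring (0.0202) and with the replicate block (0.00472), and was -0.22 (limma adjusted p = 0.115) without Ctrl library 1, -0.21 (0.294) with scaling to total reads and -0.40 (0.0682) with quantile normalization. Counting ignored strand, so reads of annotated antisense genes, *Junos* at *Jun* and *Gm11175* at *Jund*, cannot be told apart from those of the members.

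Ratios within a library compare the Jun genes with each other. The log2 ratio of *Jun* to *Jund* was -1.40, -1.60 and -1.55 in Ctrl libraries and -0.70, -0.50 and -0.20 in cKO libraries, a difference of 1.05. The log2 ratio of *Junb* to *Jund* was -2.09, -1.62 and -1.85 in Ctrl libraries and -1.24, -1.13 and -0.88 in cKO libraries, a difference of 0.77. Neither ratio overlapped between the groups, and both had an exact two-sided permutation p of 0.1 (0.2 after adjustment over the 4 ratios computed), the smallest that 3 against 3 libraries allow. The ratio of *Jun* to *Junb* overlapped, with a difference of 0.28 (exact permutation p = 0.3, adjusted 0.4). Such a ratio does not depend on how libraries are scaled, apart from the added 1, and the difference for *Jun* to *Jund* stayed between 0.92 and 1.17 when any 1 library was left out.

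**Figure D2:**
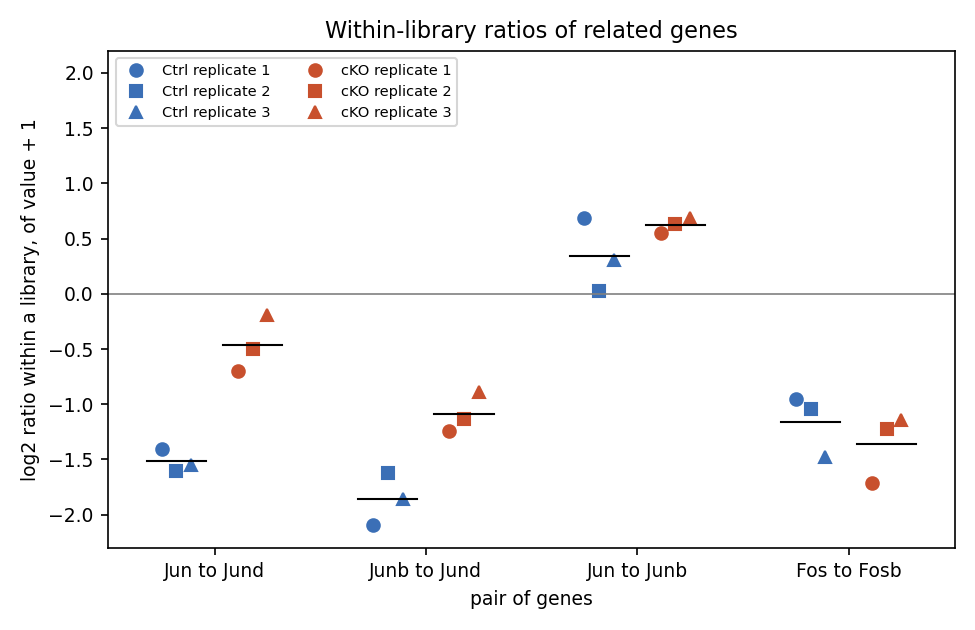
Log2 ratio within each library of value + 1 for 4 pairs of AP-1 genes, with Ctrl in blue, cKO in orange, a marker shape per replicate number and a black line at each group mean. *Jun* to *Jund* and *Junb* to *Jund* are wholly higher in cKO, and *Jun* to *Junb* and *Fos* to *Fosb* overlap.

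The Fos genes encode the subunits that bind DNA only as partners of Jun proteins, and *Fos* is the textbook target of SRF. *Fos* (chromosome 12, 85473890 to 85477274) had 12.2, 7.63 and 7.99 normalised reads in Ctrl libraries and 6.29, 6.72 and 6.36 in cKO libraries. The cKO libraries were within 1 read per 1e6 of each other and below every Ctrl library, whose highest value was again library 1. The log2 fold change was -0.43 (SE 0.18, 95% interval -0.82 to -0.05, limma adjusted p = 0.0560), and -0.24 (limma adjusted p = 0.294) without Ctrl library 1. *Fos* passed the test without Ctrl library 2 (limma adjusted p = 0.0322) or Ctrl library 3 (0.0440), in edgeR (0.0493), and under median centring (0.0190) or quantile normalization (-0.62, 0.00725). With libraries scaled to total reads it was -0.26 (0.269).

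*Fosb* (chromosome 7, 19302696 to 19310118) had 24.5, 16.8 and 24.1 normalised reads in Ctrl libraries and 22.9, 17.0 and 15.2 in cKO libraries. The groups overlapped, and the log2 fold change was -0.24 (SE 0.16, 95% interval -0.58 to 0.11, limma adjusted p = 0.234). Of all alternatives it passed only without Ctrl library 2 (-0.40, limma adjusted p = 0.0451), and it was -0.12 without cKO library 3, -0.15 without Ctrl library 1 and -0.04 with scaling to total reads. The log2 ratio of *Fos* to *Fosb* differed by -0.20 between the groups (exact permutation p = 0.5, adjusted 0.5).

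*Nr4a1*, known as Nur77, encodes a nuclear receptor induced by antigen receptor signals and widely used as a reporter of them in lymphocytes. It lies on chromosome 15, 101253902 to 101274795. It had 4.09, 2.78 and 3.13 normalised reads in Ctrl libraries and 5.90, 8.25 and 8.98 in cKO libraries, so every cKO library was above the highest Ctrl library. The mean rose from 3.33 ± 0.679 to 7.71 ± 1.61 (SD, n = 3 each), 2.31-fold on the linear scale, with a log2 fold change of 1.0 (SE 0.20, limma adjusted p = 0.000409). It was the largest change among the members in either direction. In the study, V to DJ rearranged heavy chain bands were absent from cKO early LPre-B cells. Igμ chain inside CD43-positive, CD2-negative cells was rare in cKO, and more of these cells were in S phase. The study states that the cKO cells lack the pre-B cell receptor. Which signals lie behind the *Nr4a1* values was not tested.

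*Egr1*, an early growth response transcription factor downstream of ERK and SRF, moved the other way. It lies on chromosome 18, 34861207 to 34864956, and was at a low level, with 5.15, 6.52 and 4.22 normalised reads in Ctrl libraries and 4.05, 2.39 and 3.41 in cKO libraries. The groups did not overlap, with a gap between the lowest Ctrl and the highest cKO library of less than 1 read per 1e6. The log2 fold change was -0.56 (SE 0.21, limma adjusted p = 0.0354). The call was lost without Ctrl library 1 (limma adjusted p = 0.0574), Ctrl library 2 (0.146), cKO library 2 (0.167) or cKO library 3 (0.0625), in DESeq2 (0.0584) and with libraries scaled to total reads (-0.40, 0.126).

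*Ier2* and *Klf6* had the smallest standard errors among the members. *Ier2* (chromosome 8, 84661331 to 84662852) encodes a short nuclear protein that regulates transcription. It had 24.9, 28.3 and 24.8 normalised reads in Ctrl libraries and 38.2, 36.2 and 38.9 in cKO libraries, a log2 fold change of 0.52 (SE 0.11, limma adjusted p = 0.000396). *Klf6* (chromosome 13, 5861489 to 5870393) encodes a Krüppel-like zinc finger factor. It had 40.1, 35.01 and 35.9 normalised reads in Ctrl libraries and 56.0, 50.1 and 62.9 in cKO libraries, a log2 fold change of 0.59 (SE 0.10, limma adjusted p = 0.000106). In both genes the lowest cKO library exceeded the highest Ctrl library. *Nr4a1*, *Jun*, *Ier2* and *Klf6* passed the test under all 17 alternative settings.

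*Dusp1* (chromosome 17, 26505591 to 26508472) encodes the phosphatase that inactivates p38 and JNK and limits the response. It had 17.2, 9.65 and 14.9 normalised reads in Ctrl libraries and 14.1, 13.8 and 11.4 in cKO libraries. The cKO values lay inside the Ctrl range, and the log2 fold change was -0.05 (SE 0.18, 95% interval -0.42 to 0.32, limma adjusted p = 0.836). The interval covers changes of either sign, and the estimate was 0.14 when libraries were scaled to total reads.

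**Figure D3:**
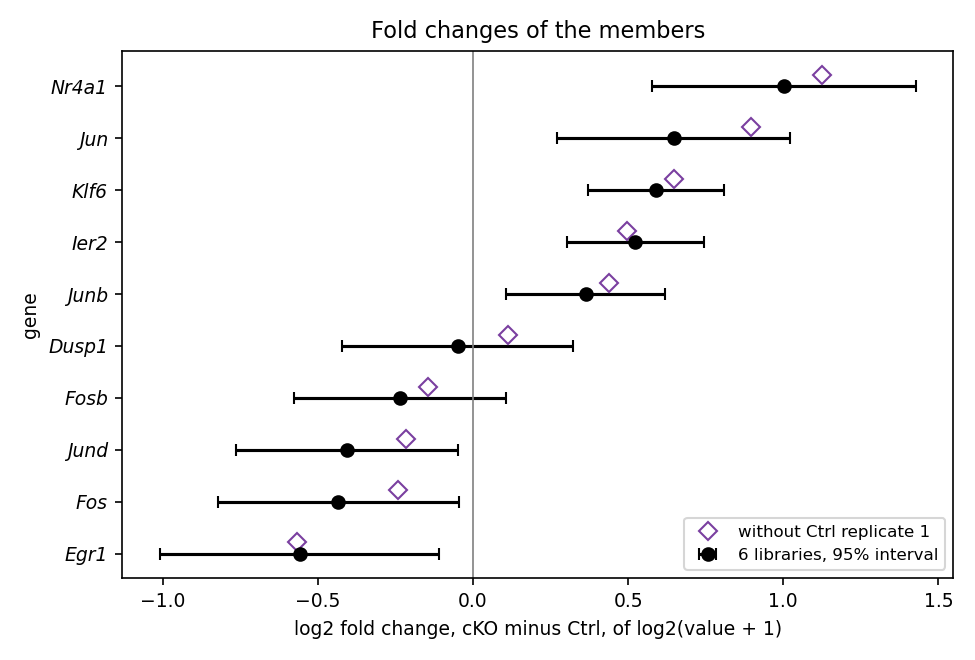
Log2 fold change (cKO minus Ctrl, of log2(value + 1)) of the 10 members with the 95% interval of the limma fit on 6 libraries, and open diamonds for the fit without Ctrl replicate 1. Leaving out that library moves *Jun* from 0.65 to 0.90, *Fos* from -0.43 to -0.24 and *Jund* from -0.41 to -0.22.

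The Ctrl libraries differed among themselves in these genes. Library 1 held the highest Ctrl value in 8 of 10 members (*Egr1* and *Ier2* were the exceptions), and in 24 of 35 other immediate early genes (68.6%), against 35.2% of all genes. Library 2 held the lowest Ctrl value in 7 of 10 members, against 32.8% of all genes. The median deviation of the members from the Ctrl mean on the log2 scale was 0.21 in library 1, -0.20 in library 2 and -0.11 in library 3, and within 0.01 of 0 over all genes in each. Library 1 had the highest summed neutrophil and monocyte markers of the Ctrl group, 194 against 112 and 73.2, and the lowest Ctrl value for 10 of 13 heat shock genes. In the cKO group library 1 had the highest summed neutrophil and monocyte markers (561) and the highest value for 7 of 13 heat shock genes, with a median member deviation of 0.01. The part of these genes in the members' levels was not tested. Without Ctrl library 1, 5 members were higher (the same 5 genes), and *Egr1* did not pass (log2 fold change -0.57, limma adjusted p = 0.0574).

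**Figure D4:**
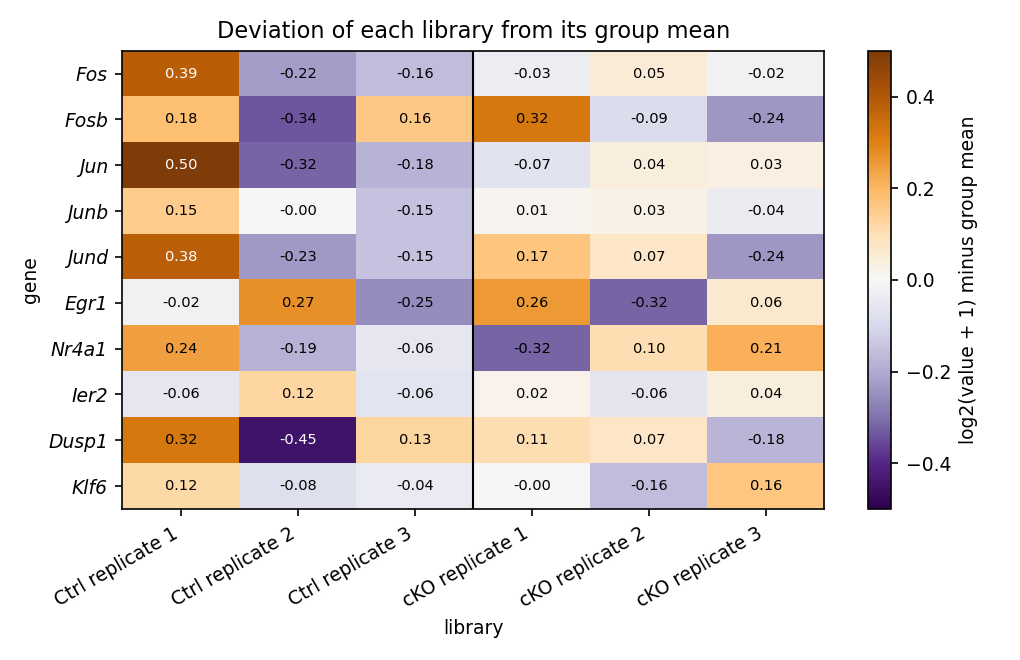
Difference of log2(value + 1) from the group mean for each member (rows) in each library (columns), with orange above and purple below the mean and the vertical line between Ctrl and cKO. Ctrl replicate 1 is above its group mean in 8 of 10 members, by up to 0.50 in *Jun*, and the cKO columns show no such run.

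Levels of different genes were compared as normalised reads per kb of transcript. In Ctrl the order was *Jund* (24.6 ± 6.07 per kb, SD, n = 3), *Ier2* (17.1 ± 1.33), *Junb* (10.1 ± 1.09), *Klf6* (8.76 ± 0.644), *Jun* (7.65 ± 2.56), *Dusp1* (6.98 ± 1.93), *Fosb* (5.76 ± 1.14), *Fos* (4.39 ± 1.20), *Nr4a1* (1.31 ± 0.266) and *Egr1* (1.18 ± 0.258). Neighbours from *Junb* down to *Fos* overlapped in range, as did *Nr4a1* and *Egr1*. The *Egr1* transcript used, 4484 bases, is longer than its RefSeq span of 3750 bases. The order of *Nr4a1* and *Egr1* in Ctrl depends on which length is taken. In cKO *Ier2* came first (24.8 ± 0.922 per kb), above *Jund* (18.2 ± 2.62), and *Nr4a1* (3.02 ± 0.629) reached the level of *Fos* (3.06 ± 0.108). The place of *Jund* depends on its annotated length, because its RefSeq span of 2878 bases is longer than the 1668 bases of its GENCODE transcript, with which its level was 42.4 per kb in Ctrl and 31.5 in cKO, first in both groups.

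The study describes UPF1 in NMD and also in decay led by Staufen and by Regnase-1. NMD acts on transcripts with an exon junction well downstream of the stop codon and also on some with long 3′UTRs. *Jun*, *Junb*, *Jund* and *Ier2* are encoded by a single exon, 4 of 10 members against 2.64% of the 11959 genes with a coding model. No member's longest coding transcript had a junction more than 50 bases after the stop codon. A transcript annotated as an NMD target was present only for *Klf6* (1 of its 3 transcripts), against 29.4% of genes. *Klf6* also had the longest 3′UTR of the members, 3111 bases, and that of *Junb* was the shortest, 485 bases, against a median of 1114 bases over genes with a coding model. The 5 members higher in cKO included 3 single-exon genes (*Jun*, *Junb* and *Ier2*), and *Jund*, also of a single exon, did not pass. Gene counts do not resolve which transcript of *Klf6* was counted. The part of gene structure in the members' values was not tested.

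AU-rich elements mark mRNAs for rapid decay and are bound by ZFP36 proteins. The pentamer ATTTA occurred at least 3 times in the 3′UTR of 5 members (*Klf6* 7, *Fos* 4, *Jun* 4, *Dusp1* 4 and *Nr4a1* 3), against 37.0% of genes, and in *Ier2* it did not occur. The nonamer TTATTTATT occurred in *Fos* (1 site) and *Dusp1* (2 sites), against 7.72% of genes. Windows of 30 bases from 4 of these 3′UTRs (GENCODE, GRCm38) are shown 5′ to 3′ with the pentamers in capitals, for the members with the nonamer, which did not pass the test, and for *Jun* and *Nr4a1*, which rose in cKO.
Fos, chr12:85477092-85477121, plus strand: cgtttttattgtgttttcaATTTATTTAtt
Dusp1, chr17:26506167-26506196, minus strand: ggctcatgggagctggtccttATTTATTTA
Jun, chr4:95049210-95049239, minus strand: gtgatcATTTAtaatcataggaaagATTTA
Nr4a1, chr15:101274701-101274730, plus strand: gATTTAtatttgtgtattttcctggATTTA

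Among the members with at least 3 pentamers, *Klf6*, *Jun* and *Nr4a1* were higher in cKO and *Fos* and *Dusp1* did not pass. Of those with fewer, *Junb* (2) and *Ier2* (0) were higher, *Egr1* (2) was lower, and *Fosb* and *Jund* (1 each) did not pass. The part of these elements in the members' values was not tested. Of 24 genes for AU-rich element binding and deadenylation factors, 3 were higher (12.5%) and 9 lower (37.5%) in cKO, beside 27.7% and 25.0% of all genes, with a median log2 fold change of -0.19. *Zfp36*, whose protein binds these elements and promotes decay, fell from 55.5 ± 5.84 to 30.1 ± 1.58 normalised reads (SD, n = 3 each), a log2 fold change of -0.86 (SE 0.10, limma adjusted p = 1.4e-06). Its relative *Zfp36l1* had a log2 fold change of -0.69 (limma adjusted p = 7.9e-06), and *Btg1*, which recruits the deadenylase, of -0.94 (limma adjusted p = 1.6e-07).

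Other immediate early genes were found on both sides. Of 46 genes listed, 35 were in the table, of which 11 were higher and 11 lower in cKO (31.4% each, beside 27.7% and 25.0% of all genes) with a median log2 fold change of -0.03. *Cd69*, an early activation antigen of lymphocytes, had 7.81, 6.42 and 11.8 normalised reads in Ctrl libraries and 49.6, 46.1 and 44.7 in cKO libraries (log2 fold change 2.34, SE 0.16, limma adjusted p = 1.7e-09). *Gadd45b*, a stress sensor upstream of p38 and JNK, had 6.75, 7.53 and 6.40 in Ctrl libraries and 27.1, 30.1 and 32.1 in cKO libraries (log2 fold change 1.96, SE 0.14, limma adjusted p = 1.5e-09). The study names *Gadd45b* a known NMD target, higher in cKO, whose RNA was bound by phosphorylated UPF1 in activated splenic B cells. *Sik1*, a salt-inducible kinase gene transcribed through CREB, had 120, 97.3 and 166 in Ctrl libraries and 34.7, 25.7 and 37.1 in cKO libraries (log2 fold change -1.92, SE 0.22, limma adjusted p = 0.000310). In all 3 genes the groups were far apart relative to the spread within them. These changes ran in both directions and were further from 0 than that of any of the 10 members. The 3 genes were named for the largest changes in the list, so this follows in part from how they were chosen. Leaving out any 1 library gave between 10 and 12 higher and between 10 and 13 lower, and scaling to total reads gave 14 higher and 8 lower.

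Genes for AP-1 dimer partners and related leucine zipper factors had 8 higher (50%) and 3 lower (18.8%) of 16 in the table, beside 27.7% and 25.0% of all genes, and a median log2 fold change of 0.37. *Ddit3*, encoding CHOP of the integrated stress response, rose from 10.3 ± 0.816 to 109 ± 1.67 normalised reads (SD, n = 3 each), a log2 fold change of 3.29 (SE 0.10, limma adjusted p = 2.4e-14). Like *Gadd45b*, it is named in the study as a known NMD target bound by phosphorylated UPF1. *Jdp2*, encoding a repressor that dimerises with Jun proteins, had a log2 fold change of 2.43 (limma adjusted p = 5.3e-08), and *Atf5*, another stress response factor, of 1.78 (limma adjusted p = 9.2e-10). *Fosl2*, the Fos family gene for FRA2, was chosen after its values were seen, as a relative of *Fos* and *Fosb*. It rose from 3.40 ± 1.48 to 8.21 ± 0.356 normalised reads (SD, n = 3 each), a log2 fold change of 1.12 (SE 0.22, limma adjusted p = 0.000318).

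Genes that carry growth factor signals to SRF and CREB had 5 higher (17.2%) and 13 lower (44.8%) of 29, beside 27.7% and 25.0% of all genes, and a median log2 fold change of -0.22. The number lower over all pathway lists depended on scaling, from 20 with total reads to 58 with median centring, against 38 as deposited. The RSK kinase genes, whose products phosphorylate CREB and SRF, were split: *Rps6ka3* had a log2 fold change of -0.78 (limma adjusted p = 6.9e-07), *Rps6ka2* of 0.77 (0.00133) and *Rps6ka1* of 0.77 (1.8e-05). The JNK and p38 kinase genes, which act on c-Jun and ATF2, had 4 higher (26.7%) and 3 lower (20%) of 15, close to the shares over all genes, and a median of -0.03. *Mapk11*, encoding p38 beta, had a log2 fold change of 1.76 (limma adjusted p = 8.0e-08), while the p38 activating kinase genes *Map2k3* (-0.58, 2.8e-05) and *Map2k6* (-0.55, 0.00908) were lower. The call for *Map2k6* was lost without cKO library 3 (limma adjusted p = 0.0524) and with scaling to total reads (-0.36, 0.0733).

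Feedback inhibitors of ERK had 3 higher (23.1%) and 4 lower (30.8%) of 13, close to the shares of 27.7% and 25.0% over all genes, with a median of -0.07. The Sprouty genes *Spry4* (log2 fold change -0.99, limma adjusted p = 0.00323) and *Spry1* (-0.80, 0.00345) were lower, both from low Ctrl levels (2.02 ± 0.329 and 5.38 ± 0.953 normalised reads, SD, n = 3). *Spry4* had no read in cKO library 1, and its log2 fold change depended on the pseudocount, reaching -2.69 with none. Of 9 dual specificity phosphatase genes, *Dusp1* among them, 2 were higher and 2 lower (22.2% each), close to those shares. This list shares genes with the ERK list, among them *Dusp5* and *Dusp7*, the 2 that were higher. The counts are therefore not separate results. *Dusp10*, which acts on p38 and JNK, fell from 16.1 ± 2.23 to 8.04 ± 1.29 normalised reads (SD, n = 3 each), a log2 fold change of -0.92 (limma adjusted p = 9.7e-05). *Dusp5*, which acts on nuclear ERK, had a log2 fold change of 0.70 (limma adjusted p = 0.0137). It was not called without Ctrl library 2 (0.0639), Ctrl library 3 (0.0620) or cKO library 2 (0.0790), or under quantile normalization (log2 fold change 0.51, adjusted p = 0.0605). *Dusp7*, which acts on cytoplasmic ERK, had a log2 fold change of 0.32 (limma adjusted p = 0.0170), not called without Ctrl library 3 (0.0863), cKO library 1 (0.0781) or cKO library 2 (0.0504), under median centring (log2 fold change 0.21, adjusted p = 0.102), or without trend and robust estimation (0.0569).

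In the KLF and SP family, 5 genes were higher (31.2%) and 4 lower (25%) of 16, near the shares over all genes, with *Klf6* itself among the list. *Klf4*, a quiescence factor of B cells, fell from 20.9 ± 3.93 to 5.13 ± 0.477 normalised reads (SD, n = 3 each), a log2 fold change of -1.82 (limma adjusted p = 3.4e-08). *Klf13* had a log2 fold change of -1.19 (limma adjusted p = 1.6e-09) and *Klf3*, a repressor, of 1.57 (limma adjusted p = 1.5e-06). The heat shock genes, which are often induced with immediate early genes during tissue handling, had 2 higher (15.4%) and 1 lower (7.69%) of 13, both under the shares over all genes, with a median of -0.06. *Hsph1* had a log2 fold change of 0.77 (limma adjusted p = 0.00144) and *Hsf1* of 0.44 (0.000933). *Hsp90ab1* was at -0.34 (limma adjusted p = 0.0472), not called without Ctrl library 2 (0.238), Ctrl library 3 (0.0973), cKO library 1 (0.0695) or cKO library 3 (0.0980). Its call was also lost without trend and robust estimation (0.105), with scaling to total reads (-0.13, 0.407) and with quantile normalization (-0.01).

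**Figure D5:**
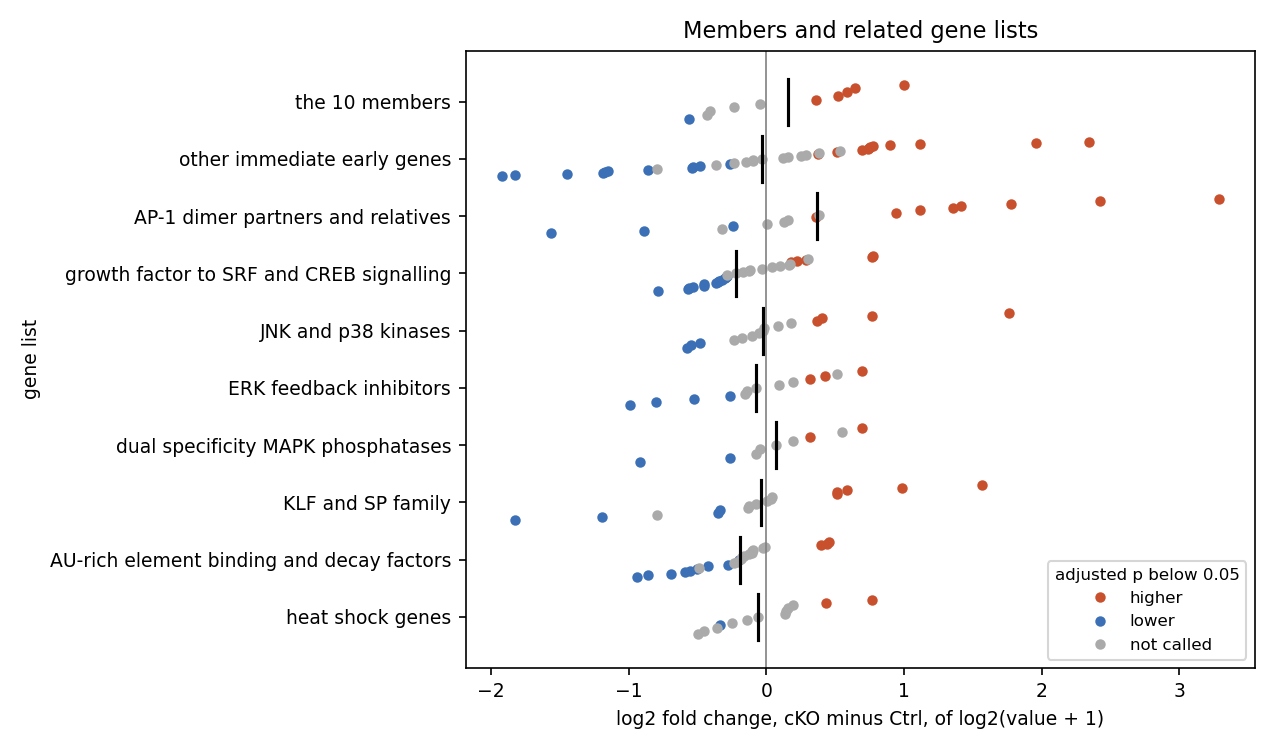
Log2 fold change (cKO minus Ctrl, of log2(value + 1)) of each gene in the members and 9 related lists, one row per list, coloured by whether it was higher, lower or not called at an adjusted p of 0.05, with a black line at the median. Medians run from -0.22 for the signalling genes to 0.37 for the AP-1 partners, and the members span -0.56 to 1.0.

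Profiles across libraries were compared with the mean standardised level of the 5 members that were higher in cKO. Among 9044 genes outside the lists with a mean log2 value of at least 3, the highest Pearson r over the 6 libraries were those of *Plxdc1* (0.997), *Prkce*, a protein kinase C gene (0.997), *Tmem94* (0.997), *Ifnar1*, a chain of the type I interferon receptor (0.997), and *Homer3* (0.996). These are descriptions over 6 libraries that share the difference between the groups, and 16.7% of the genes compared had an r above 0.9. Their log2 fold changes ran from 0.58 (*Prkce*) to 1.36 (*Plxdc1*).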

How the data were processed

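The authors sorted early LPre-B cells from bone marrow, depleted ribosomal RNA and made directional libraries. Per the labels and methods, reads were trimmed with cutadapt 4.0, aligned to mm10 with HISAT2 from a single end without use of strand, counted per gene with featureCounts 2.0.1 and normalised with limma 3.48.0. The deposited values are a linear signal, here called normalised reads. Each equals (reads + 0.5) per 1e6 of an effective library size set by the authors. Whole reads were recovered for 100% of values (within 0.01 reads). Reads carry no molecular identifiers, so they are not independent molecules.

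Symbols came from RefSeq (13008 genes), with 3 from GENCODE and 415 unnamed. Groups were compared on log2(value + 1), a scale that understates the change of low genes, using limma 3.58.1 (R 4.3.3) with trend and robust options and no covariate. P-values were adjusted by Benjamini-Hochberg over all 13426 genes. The design had allowed for values already in log2, and the linear form was used. The fit was tested on simulated data. Ratios of members were compared by exact permutation over the 20 assignments of 6 libraries.

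Members and lists were chosen with earlier results of these data known. Named genes were all members, *Upf1*, at most 3 called genes per list by largest change with a mean log2 value of at least 1, and the 5 genes most alike. *Fosl2*, *Ly6g* and *Cebpe* fall outside this rule and were chosen after their values were seen, and *Junos* and *Gm11175* are named only as overlapping genes. As a check for libraries deposited more than once, pairs within a group were compared, and a chi-square over its degrees of freedom of 4.53 to 23.43 left none to be merged. Alternatives were a replicate block, no trend, voom, edgeR 4.0.16 and DESeq2 1.42.0 on recovered reads, pseudocounts of 0.1 and 0 (the latter added after seeing the data), median centring, quantile normalization, scaling to total reads, a minimum mean log2 value of 1, and leaving out each library. Sequences are from RefSeq promoters (GRCm38.p6) and GENCODE M21 transcripts.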

Additional observations from a re-analysis of the deposited data

How the results depend on the processing

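*Jun*, *Nr4a1*, *Ier2* and *Klf6* kept their direction and call in 17 of 17 alternatives, with log2 fold changes of 0.49 to 0.90, 0.82 to 1.23, 0.42 to 0.72 and 0.48 to 0.79. The number of members lower in cKO, 1 as reported, was 2 with the replicate block, with voom and with quantile normalization, 3 with edgeR and with median centring, and 0 with scaling to total reads, and leaving out a library gave 0 to 3. *Dusp1*, not called under any setting, changed sign with scaling to total reads (0.14) and without Ctrl library 1 (0.11), Ctrl library 3 (0.01) or cKO library 3 (0.04), within a range of -0.27 to 0.11 over left-out libraries. Of the 128 genes in the pathway lists, 38 were lower as reported, 58 with median centring and 20 with scaling to total reads. Over all genes the median log2 fold change, 0.01 as deposited, became -0.10 (median centring), -0.05 (quantile) and 0.19 (total reads), while the share of calls that were higher went from 52.6% to 40.7%, 47.0% and 72.8%. Changes in the report are relative to the deposited scaling, and the cause of these differences was not tested. Same-numbered libraries deviated together with r of 0.126, -0.063 and -0.079, so the numbers were not taken as pairs. The deposited column names give same-numbered cKO and Ctrl libraries adjacent serial numbers. Whether these mark paired collection or handling is not stated. Under the replicate block 5 members were higher and 2 lower, *Jund* with an adjusted p of 0.00472. Depth limits *Egr1* and *Nr4a1* most, with as few as 26 reads in a library.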
